A study of Mus musculus with 18 samples.

Results

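Sphingosine 1-phosphate signalling was described through 8 genes, Sphk1, Sphk2, S1pr1, S1pr2, S1pr3, S1pr5, Sgpl1 and Sgpp1, of 18193 named genes in the table. Every probe set annotated to one of these genes was taken, which gave 16 probe sets of 45037 that are not controls. The set was chosen by the measured levels of Sphk1, already known to be low in one of the groups, so the Sphk1 values are a description with no test. The other 7 genes make, sense or remove the same lipid. They and the gene lists below were also chosen with earlier results of these data known. Their p-values do not allow for that choice.

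RNA from mouse hippocampus, which animals need to learn places, was hybridised to 18 Affymetrix arrays, 1 per sample. In 6 samples the mice were aged and their spatial memory was impaired, in 6 they were aged and it was unimpaired, and in 6 they were young, with spatial memory that the labels also call unimpaired. The sources used here give no genotype, strain, treatment or exact age. Whether the samples of a group are separate animals is not stated either, so p-values cover only the spread among samples, which may be technical.

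Sphingosine 1-phosphate is a lipid signal made inside cells by phosphorylation of sphingosine, which comes from the breakdown of ceramide. It leaves the cell through transporters and acts on G protein coupled receptors at the surface of the same or neighbouring cells, and it is removed by a lyase and by phosphatases. In the brain its receptors are known from astrocytes, endothelial cells, oligodendrocytes and microglia, and in blood and lymph the lipid directs the traffic of immune cells.

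Upstream sequence is shown for Sphk1 and S1pr3. On 1 of its 2 probe sets, close to background, Sphk1 separated the aged groups. S1pr3 was the member called, on 1 of its 2 tested probe sets and near the threshold. RefSeq sequences on GRCm38.p6 gave a window of 250 bases before to 50 after a start for 7 of the 8 genes, and S1pr1 was not matched. Sphk1 has 5 windows, which is more than any other member, and the first and second begin transcription at different places on chromosome 11. The 100 bases before those starts and before the S1pr3 start, on the plus strand, are given 5′ to 3′, with capitals marking a motif match.
Sphk1, start 1, chr11:116531000-116531099: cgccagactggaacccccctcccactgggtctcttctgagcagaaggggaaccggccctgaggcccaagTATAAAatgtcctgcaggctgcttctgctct
Sphk1, start 2, chr11:116531737-116531836: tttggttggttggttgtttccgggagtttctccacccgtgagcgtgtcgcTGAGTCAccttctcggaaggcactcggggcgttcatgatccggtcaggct
S1pr3, chr13:51408518-51408617: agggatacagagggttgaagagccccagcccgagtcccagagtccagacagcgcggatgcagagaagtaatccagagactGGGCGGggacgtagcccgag

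Short motifs were searched on both strands of all windows, the TATA box TATAAA, the GC box GGGCGG, the AP-1 motif TGAGTCA and the E-box CACGTG, chosen after these sequences had been read. The TATAAA match begins 31 bases before the first Sphk1 start, and 13.6% of all 32851 windows hold that motif. The TGAGTCA match begins 50 bases before the second Sphk1 start, and 5.2% of all windows hold one. The GGGCGG match begins 20 bases before the S1pr3 start, and 35.7% of all windows hold one. CACGTG occurs in 7.15% of all windows and in neither of the windows shown for Sphk1. It does occur in Sphk1 windows 4 and 5, which overlap and are not shown, 95 and 102 bases before their starts. No match overlapped another in the sequences shown. The 2 Sphk1 windows shown in part differ in base composition, with 6 and 21 CG dinucleotides in their 300 bases. The median over all windows was 7, and the S1pr3 window has 14. The arrays do not say which start a transcript used, and a match describes letters only.

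The deposited values are MAS5 probe set signals, and every array has a trimmed mean of 150. Each array was rescaled to a trimmed mean of 500, an offset of 16 was added, and levels are given as log2 of the result. A difference is therefore on the log2(signal + 16) scale and understates the change of dim genes. Probe sets in the lowest 40% by mean were not tested, which left 27022 tested, 14 of them members. The background was read from 80 probe sets of olfactory and vomeronasal receptors, which the hippocampus as a rule does not use. Their median level was 4.81 and their 95th percentile 5.84, and a member with a mean at or under 5.84 was called near background.

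By this measure 2 of the 16 member probe sets were near background, Sphk1 1420566_at with a mean of 5.21 over all samples and S1pr3 1460661_at with a mean of 5.44, and neither was tested. The other Sphk1 probe set, 1451596_a_at, had a mean of 6.01, close above the ceiling. The remaining 13 tested member probe sets had means between 6.45 for S1pr2 1428176_at and 10.65 for S1pr1.

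Defining markers of hippocampal neurons were bright in all groups, with 18-sample means of 13.50 for Rbfox3 and 13.35 for Camk2a, and no neuronal marker was called in any comparison. A list of choroid plexus genes, from the secretory epithelium of the ventricles next to the hippocampus, split the arrays. Its mean level was 8.88 or more in 13 arrays and 7.65 or less in 5, namely 1 aged impaired, 3 aged unimpaired and 1 young array. Results that could move with this split are given with and without those 5 arrays. In bulk tissue, fewer cells of a type and less RNA per cell cannot be told apart.

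Sphingosine kinases make the lipid, and Sphk1 is the mainly cytosolic one that moves to the cell membrane when cells are stimulated. On probe set 1451596_a_at the lowest, median and highest Sphk1 level was 5.93, 6.20 and 6.50 in aged impaired samples, 4.56, 5.41 and 5.87 in aged unimpaired samples, and 5.86, 6.60 and 7.11 in young samples. The mean was 6.20 ± 0.22 in aged impaired, 5.27 ± 0.48 in aged unimpaired and 6.56 ± 0.46 in young samples (SD, n = 6 each), so it was highest in young and lowest in aged unimpaired samples. All 6 aged impaired samples lay above all aged unimpaired samples, and 5 of 6 aged unimpaired samples lay below all young samples.

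The difference in Sphk1 level was 0.93 ± 0.22 (SE) between aged impaired and aged unimpaired samples and −1.29 ± 0.22 between aged unimpaired and young samples. Of all tested probe sets, 0.259% were likewise higher without overlap in aged impaired than in aged unimpaired samples. Sphk1 was picked with its levels known, so this share is a description and not a test. Aged impaired and young samples overlapped, and their difference of −0.37 ± 0.22 was smaller than the SD among young samples. The aged unimpaired mean lay under the background ceiling, as did 5 of its 6 samples, while no aged impaired or young sample did. In the deposited units the median Sphk1 signal was 17.35 in aged impaired, 8 in aged unimpaired and 24.35 in young samples, on arrays whose median signal over all probe sets was 23.5 to 30.5. The size of the difference depended on the offset, at 1.39 with an offset of 1 and 0.47 with an offset of 64 between the aged groups.

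The dimmer Sphk1 probe set, 1420566_at, did not show this pattern. Its lowest, median and highest level was 4.46, 5.26 and 5.89 in aged impaired, 4.17, 5.46 and 5.69 in aged unimpaired and 4.27, 5.26 and 5.55 in young samples. The groups overlapped almost wholly, and the differences were −0.03, 0.18 and 0.15 for aged impaired against aged unimpaired, aged unimpaired against young and aged impaired against young. Over the 18 samples the levels of the 2 Sphk1 probe sets correlated at r = −0.06 and all group means of the dimmer one lay under the background ceiling.

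**Figure D1:**
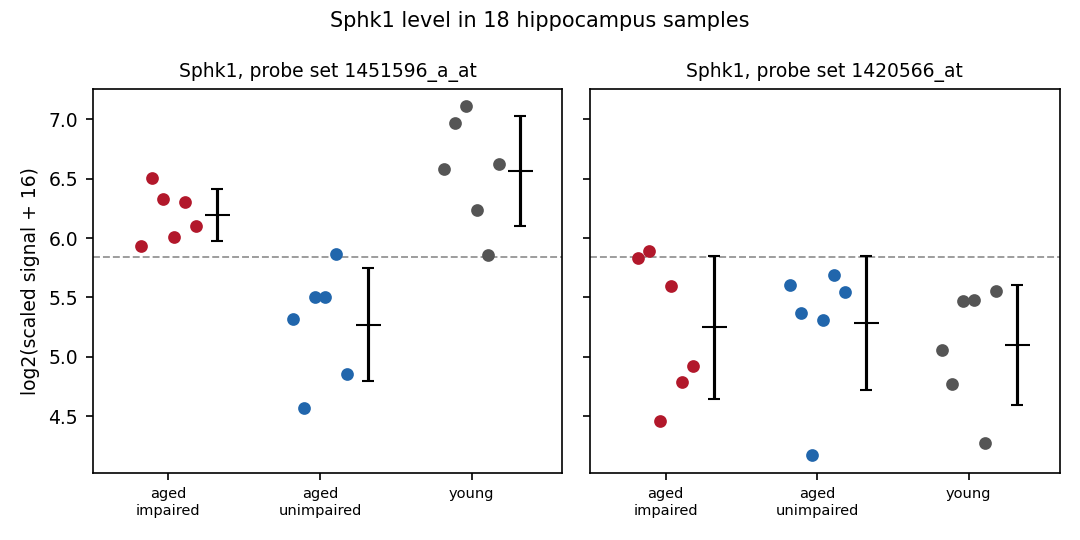
Level of each Sphk1 probe set in log2(scaled signal + 16), 1 point a sample, for aged impaired, aged unimpaired and young samples. Black marks are the mean ± SD (n = 6) and the dashed line is the background ceiling of 5.84. On 1451596_a_at the aged impaired points lie between 5.93 and 6.50 and the aged unimpaired points between 4.56 and 5.87, and on 1420566_at the groups overlap.

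The Sphk1 pattern ran beside that of choroid plexus genes in direction. Of 14 tested genes of that list, 14 were higher in aged impaired than in aged unimpaired samples, with a median difference of 0.79, and 0 of 14 were higher in aged unimpaired than in young samples, with a median of −0.80. The list's mean level ranged from 7.63 to 10.69 in aged impaired, 7.11 to 10.56 in aged unimpaired and 7.58 to 10.50 in young samples, 0 of the 14 genes were called, and none was near background. Among the 13 arrays rich in choroid plexus transcripts there were 5 aged impaired, 3 aged unimpaired and 5 young. On them the Sphk1 difference was 1.26 between aged impaired and aged unimpaired samples and −1.64 between aged unimpaired and young samples. Both values rest on 3 aged unimpaired arrays, and over all arrays they were 0.93 and −1.29. With the list's level as a covariate the Sphk1 difference was 1.03 and −1.40. Leaving out each sample in turn gave 0.79 to 1.05 and −1.43 to −1.15. Oligodendrocyte genes also separated the aged groups, with a list level of 11.79 to 11.87 in aged impaired and 11.30 to 11.74 in aged unimpaired samples, 10 of 12 genes higher, a median of 0.26 and 0 called. The part of either list in the Sphk1 values was not tested beyond these fits.

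Sphk2, the kinase found largely in the nucleus and other internal compartments, did not pass the test. On 1417431_a_at its lowest, median and highest level was 7.97, 8.23 and 8.52 in aged impaired, 8.07, 8.45 and 8.59 in aged unimpaired and 8.19, 8.39 and 8.75 in young samples. The groups overlapped, and aged impaired differed from aged unimpaired by −0.17 ± 0.12 and from young by −0.22 ± 0.12 (adjusted p = 0.760 and 0.421). Sphk2 1426230_at differed by −0.15 ± 0.16 and 0.02 ± 0.16 in those comparisons (adjusted p = 0.837 and 0.964). No Sphk2 probe set had the low aged unimpaired level of Sphk1, and aged unimpaired against young gave −0.05 ± 0.12 and 0.17 ± 0.16.

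Of the 13 tested member probe sets other than that of Sphk1, 0 were called between aged impaired and aged unimpaired samples, against 0.0111% of all tested probe sets (limma, Benjamini-Hochberg adjustment over all tested probe sets). None reached an unadjusted p under 0.05 either, against 8.09% of all tested probe sets, and the lowest adjusted p was 0.643. Between aged unimpaired and young samples 0 were called, against 0.137%, with 3 of the 13 at an unadjusted p under 0.05, against 8.19%. Between aged impaired and young samples 1 of the 13 (7.69%) was called. Of all tested probe sets 1.63% were called in either direction and 1.03% rose. At an unadjusted p under 0.05 there were 6 of the 13, against 15.8%. Probe sets of the same gene were counted separately. The median difference of the 13 was −0.09, 0.05 and −0.15 in these comparisons, against 0.01, −0.01 and −0.01 over all tested probe sets.

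**Figure D2:**
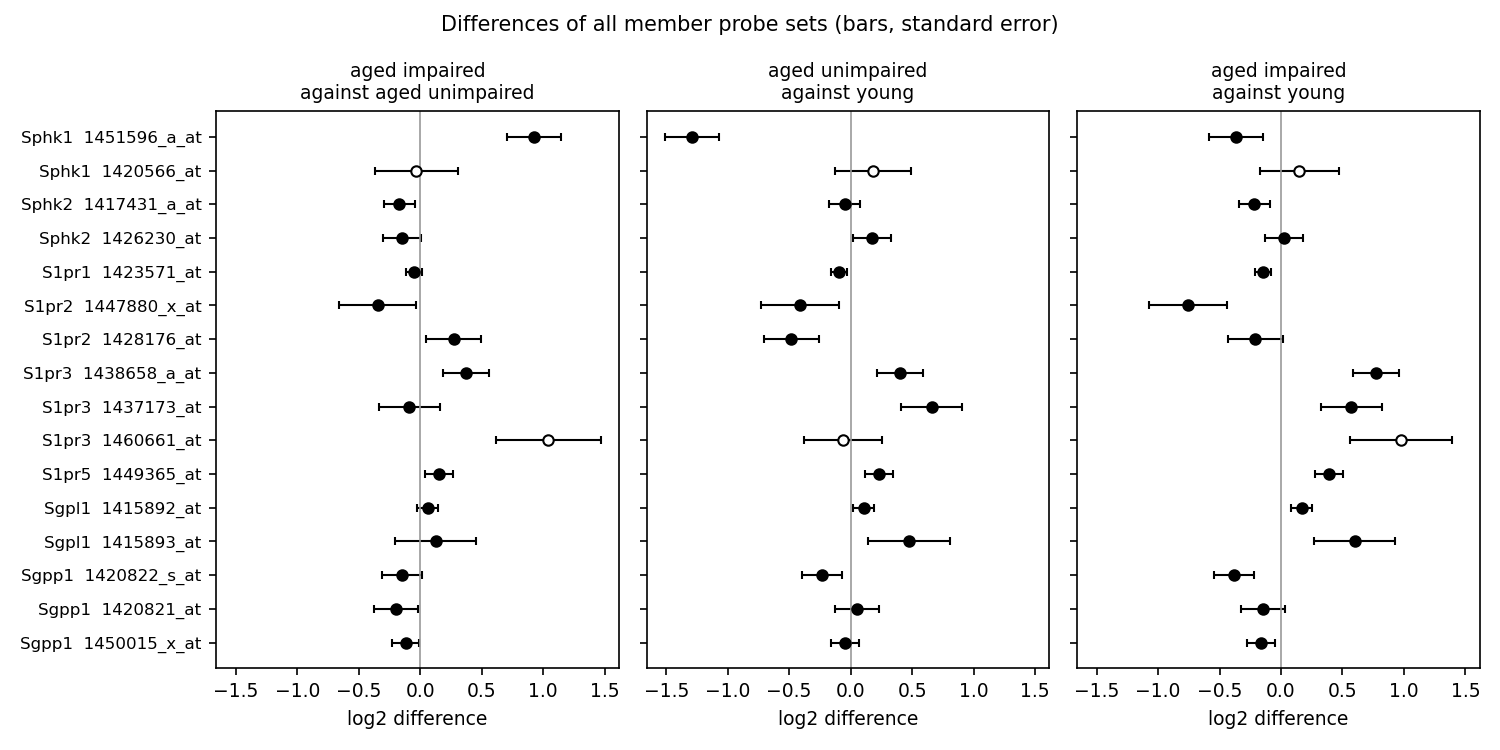
Log2 difference of each of the 16 member probe sets in each comparison, with bars of 1 standard error. Filled points were tested or, for Sphk1 1451596_a_at, fitted without a test, and open points are the 2 probe sets near background. Sphk1 1451596_a_at stands at 0.93 and −1.29 in the left and middle panels, and S1pr3 1438658_a_at at 0.77 in the right panel.

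The receptor S1pr3, which couples to several classes of G protein and is known from astrocytes and vessel walls, was the member that rose in aged impaired against young samples. On 1438658_a_at its lowest, median and highest level was 9.23, 9.41 and 10.21 in aged impaired, 8.68, 9.14 and 9.82 in aged unimpaired and 8.49, 8.91 and 9.01 in young samples. All 6 aged impaired samples lay above all young samples, a separation that 1.12% of all tested probe sets shared in that direction, while aged unimpaired samples overlapped both other groups. S1pr3 differed by 0.77 ± 0.19 between aged impaired and young samples, a fold of 1.71 on the offset scale (adjusted p = 0.0470).

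The S1pr3 difference was 0.37 ± 0.19 between aged impaired and aged unimpaired samples and 0.40 ± 0.19 between aged unimpaired and young samples (adjusted p = 0.643 and 0.606), so neither step passed the test. The call in aged impaired against young samples, for a gene chosen with earlier results known, lay near its threshold. It was kept in 9 of 25 other settings. Leaving out any 1 aged impaired or young sample gave a difference of 0.64 to 0.84 with an adjusted p between 0.0397 and 0.111. Fits without an aged unimpaired sample are not among these settings. Among the fits with a sample left out, the call was kept only without aged impaired replicate 5. Without aged impaired replicates 1, 2, 3, 4 and 6 the adjusted p was 0.0558, 0.0944, 0.0513, 0.0688 and 0.111. Without young replicates 1 to 6 it was 0.0729, 0.0703, 0.0621, 0.0576, 0.0972 and 0.106.

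A second S1pr3 probe set, 1437173_at, had a lowest, median and highest level of 6.29, 7.40 and 8.38 in aged impaired, 7.27, 7.42 and 8.24 in aged unimpaired and 6.73, 6.87 and 7.01 in young samples. All 6 aged unimpaired samples lay above all young samples, which 0.44% of all tested probe sets did in that direction, and 5 of 6 aged impaired samples did so. The difference was 0.66 ± 0.25 for aged unimpaired and 0.57 ± 0.25 for aged impaired against young samples (adjusted p = 0.469 and 0.270). Between the aged groups it was −0.09 ± 0.25 (adjusted p = 0.952), opposite in sign to the first probe set.

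The dimmest S1pr3 probe set, 1460661_at, had a lowest, median and highest level of 4.72, 6.51 and 6.85 in aged impaired, 4.35, 4.91 and 5.86 in aged unimpaired and 4.70, 4.85 and 5.94 in young samples. Only 4 of 6 aged impaired samples and 1 sample of each other group exceeded the background ceiling, and the probe set was not tested. Over the 18 samples the levels of the 3 S1pr3 probe sets correlated pairwise at r = 0.73, 0.64 and 0.51, as a description of probe sets measured on the same arrays.

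**Figure D3:**
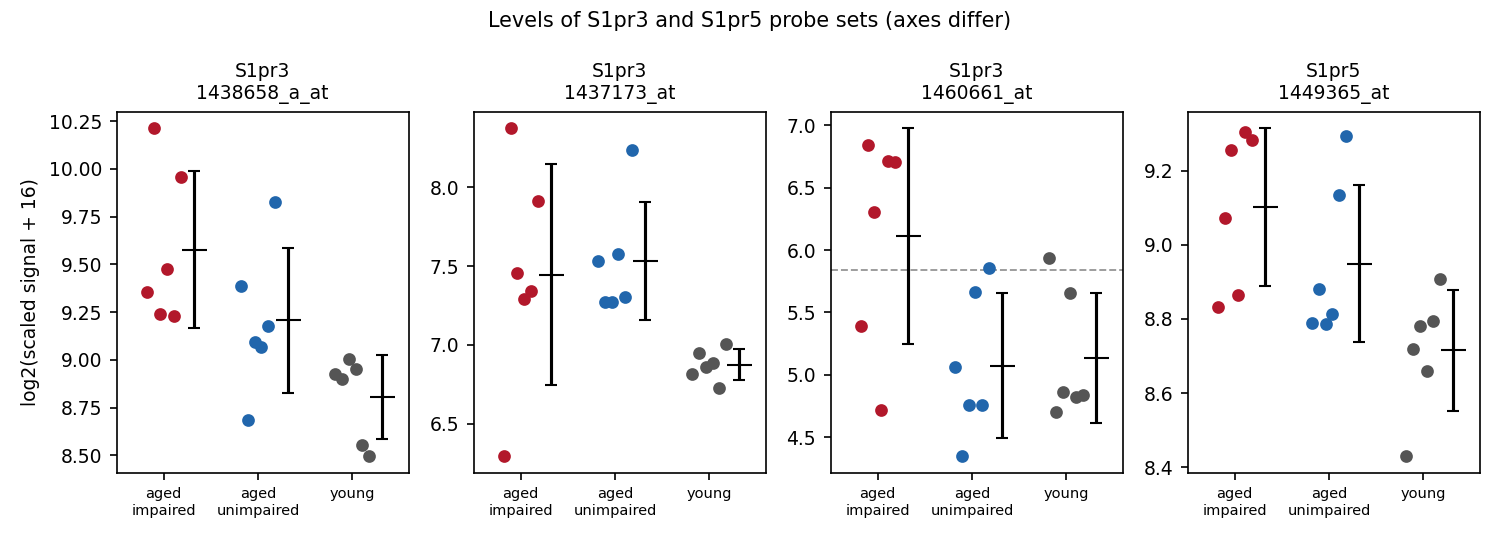
Levels of 3 S1pr3 probe sets and of S1pr5 in log2(scaled signal + 16), 1 point a sample, with axes that differ between panels. Black marks are the mean ± SD (n = 6) and the dashed line is the background ceiling of 5.84. On 1438658_a_at all aged impaired points, 9.23 and above, lie over all young points, 9.01 and below.

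S1pr5, a receptor known from oligodendrocytes and natural killer cells, did not pass the test. Its lowest, median and highest level was 8.83, 9.16 and 9.30 in aged impaired, 8.79, 8.85 and 9.29 in aged unimpaired and 8.43, 8.75 and 8.91 in young samples. The groups overlapped in every comparison, and 4 of 6 aged impaired samples lay above all young samples. The S1pr5 difference was 0.39 ± 0.11 between aged impaired and young samples (adjusted p = 0.0960), 0.15 ± 0.11 between aged impaired and aged unimpaired samples, and 0.23 ± 0.11 between aged unimpaired and young samples (adjusted p = 0.760 and 0.615).

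S1pr1, a receptor coupled to inhibitory G proteins that holds vessel barriers and is abundant in astrocytes, varied little. Its lowest, median and highest level was 10.50, 10.53 and 10.79 in aged impaired, 10.58, 10.62 and 10.80 in aged unimpaired and 10.61, 10.73 and 10.83 in young samples. These ranges overlapped, and the differences were −0.05 ± 0.07, −0.10 ± 0.07 and −0.15 ± 0.07 for aged impaired against aged unimpaired, aged unimpaired against young and aged impaired against young (adjusted p = 0.873, 0.743 and 0.287).

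S1pr2, another receptor of the lipid, was measured by 2 dim probe sets. On 1447880_x_at its lowest, median and highest level was 4.92, 6.64 and 7.14 in aged impaired, 6.35, 6.59 and 7.26 in aged unimpaired and 6.30, 7.26 and 7.56 in young samples. Its difference of −0.76 ± 0.31 between aged impaired and young samples did not pass the test (adjusted p = 0.248), and it was −0.47 without aged impaired replicate 5, the sample at 4.92. On 1428176_at the mean was 6.47 in aged impaired, 6.20 in aged unimpaired and 6.68 in young samples, and 5 of 6 aged unimpaired samples lay below all young samples (difference −0.48 ± 0.22, adjusted p = 0.587).

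Sgpl1 encodes the lyase that irreversibly cleaves sphingosine 1-phosphate. Its brighter probe set, 1415892_at, had a lowest, median and highest level of 8.40, 8.52 and 8.80 in aged impaired, 8.32, 8.47 and 8.69 in aged unimpaired and 8.28, 8.35 and 8.52 in young samples. The ranges overlapped, and aged impaired against young gave 0.17 ± 0.08 (adjusted p = 0.349). Sgpl1 1415893_at gave 0.60 ± 0.33 in the same comparison (adjusted p = 0.398), and one young sample at 4.50 stood apart from the other five, which began at 6.52. Without that sample, young replicate 5, the difference was 0.20.

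Sgpp1 encodes a phosphatase of the endoplasmic reticulum that returns the lipid to sphingosine. On 1420822_s_at its lowest, median and highest level was 8.92, 9.31 and 9.59 in aged impaired, 8.93, 9.46 and 10.06 in aged unimpaired and 9.20, 9.72 and 9.93 in young samples. The 3 Sgpp1 probe sets were all lower in aged impaired than in young samples, by values of −0.38 ± 0.16, −0.15 ± 0.18 and −0.16 ± 0.11, and none passed the test (adjusted p = 0.262, 0.743 and 0.508). Across the 18 samples 1420822_s_at and 1420821_at correlated at r = 0.74, while 1450015_x_at correlated with them at 0.10 and 0.07, so the probe sets did not vary as 1 measure.

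Markers of other cell types moved with age in the comparison in which S1pr3 rose. Of 13 tested microglial genes, 12 were higher in aged impaired than in young samples and 9 rose, with a median difference of 0.68, and 13 were higher and 3 rose in aged unimpaired against young samples, with a median of 0.60. The list's mean level was 10.09 to 10.59 in aged impaired, 10.01 to 10.53 in aged unimpaired and 9.48 to 9.76 in young samples, so both aged groups lay above the young group. Aif1, a calcium-binding protein of microglia, rose by 0.63 ± 0.12 and 0.66 ± 0.12 in aged impaired and aged unimpaired against young samples (adjusted p = 0.0112 and 0.0330).

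Of 12 tested oligodendrocyte genes, 11 were higher in aged impaired than in young samples and 3 rose, with a median of 0.32, and the list's mean level was 11.79 to 11.87 in aged impaired, 11.30 to 11.74 in aged unimpaired and 11.26 to 11.79 in young samples. Of 10 astrocyte genes only Gfap, the intermediate filament of astrocytes, rose in that comparison, by 0.77 ± 0.14 (adjusted p = 0.00992), and the list's median was 0.03. Endothelial genes had a median of 0.19, and 1 of 14 rose. The list's mean level was 8.72 to 9.19 in aged impaired, 8.87 to 9.06 in aged unimpaired and 8.79 to 8.87 in young samples. No tested gene of these lists was near background, and their part in the S1pr3 and S1pr5 values was not tested. Among the 13 arrays rich in choroid plexus transcripts the S1pr3 difference was 0.78, with fewer samples and no call (adjusted p = 0.152), and with the choroid plexus list as a covariate it was kept (adjusted p = 0.0347).

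A list of 14 meningeal fibroblast genes, added once the levels were known, ran the other way from microglia. It was lower in 13 of 14 genes in each aged group against young samples, with a median of −0.40 for aged impaired and −0.44 for aged unimpaired samples, and 0 were called. Its mean level was 7.47 to 8.36 in aged impaired, 7.52 to 8.38 in aged unimpaired and 7.98 to 8.79 in young samples. Between the aged groups the list had a median of 0.04, with 8 of 14 genes higher in aged impaired samples. Mean Sphk1 was lower in each aged group than in young samples. With this list as a covariate the Sphk1 differences were 0.90, −1.14 and −0.24 in the order of the comparisons above. In the same fit the S1pr3 1438658_a_at differences were 0.30, 0.77 and 1.07 (adjusted p = 0.662, 0.0988 and 0.00258). Without the covariate they were 0.37, 0.40 and 0.77. Calls over all probe sets in aged impaired against young samples also went from 440 to 898 with it. The list's part in the Sphk1 and S1pr3 values was not tested beyond this fit.

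**Figure D4:**
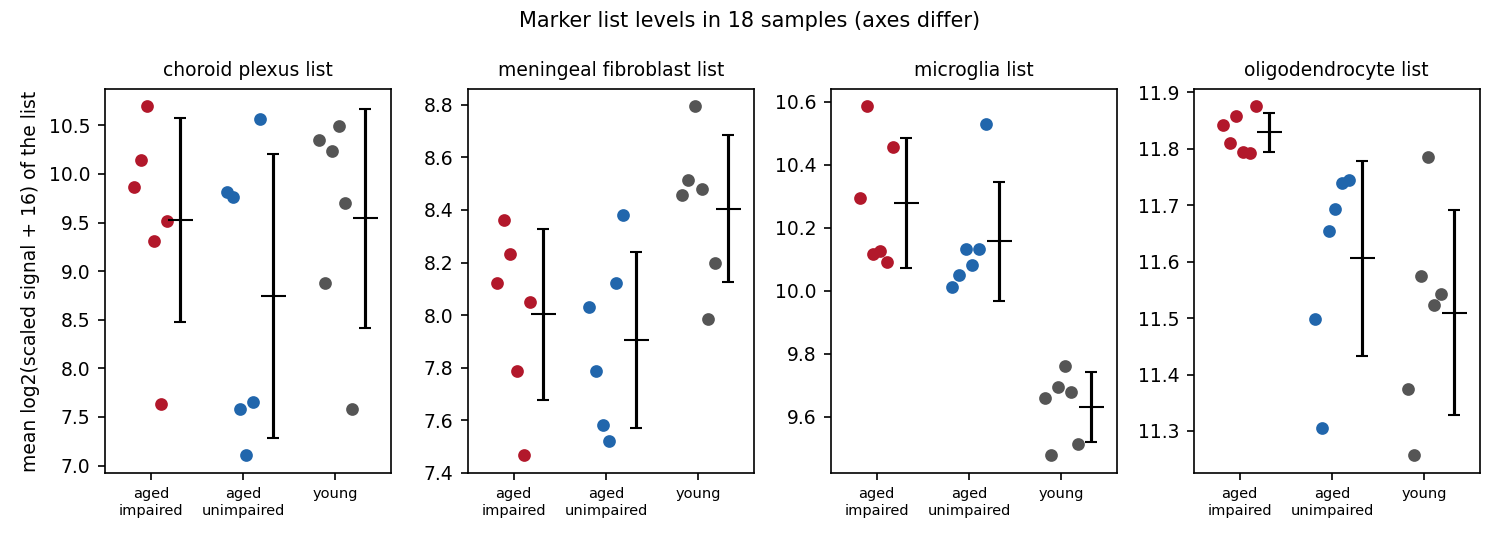
Mean level of each marker list in log2(scaled signal + 16), 1 point a sample, with axes that differ between panels and black marks for the mean ± SD (n = 6). The choroid plexus list splits each group into high and low arrays, and the microglia list lies at 10.01 or more in every aged sample and at 9.76 or less in every young sample.

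A list of 48 further genes of sphingolipid metabolism and receptor coupling, also chosen with earlier results known, was read in the same fit. Of these, 45 were in the table and 40 had a tested probe set, with 87 tested probe sets in all. None of the 87 was called between aged impaired and aged unimpaired or between aged unimpaired and young samples. At an unadjusted p under 0.05 there were 12 and 5 of the 87, against 8.09% and 8.19% of all tested probe sets. Here too, probe sets of the same gene were counted separately. Between aged impaired and young samples 3 rose and 0 fell, against 1.03% of all tested probe sets that rose. At an unadjusted p under 0.05 there were 15 of the 87, against 15.8% of all, and the median difference of the 87 was 0.01. These 3 were a pair of ceramidases and an export pump.

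Acer2 and Acer3 encode alkaline ceramidases, which release sphingosine, the substrate of the kinases, from ceramide. Acer2 1451355_at had a lowest, median and highest level of 7.32, 7.83 and 8.59 in aged impaired, 7.26, 7.50 and 8.02 in aged unimpaired and 6.65, 7.01 and 7.47 in young samples, and 5 of 6 aged impaired samples lay above all young samples. It rose by 0.89 ± 0.21 (adjusted p = 0.0366). Acer3 1438435_at had levels of 8.62, 8.79 and 9.07 in aged impaired, 8.35, 8.57 and 8.86 in aged unimpaired and 8.03, 8.37 and 8.59 in young samples. All 6 aged impaired samples lay above all young samples, and Acer3 rose by 0.48 ± 0.11 (adjusted p = 0.0323). Its other tested probe sets gave 0.11 ± 0.16 and 0.02 ± 0.35.

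Abcc1 encodes an export pump that can carry sphingosine 1-phosphate out of cells. Its probe set 1452233_at had a lowest, median and highest level of 8.77, 8.96 and 9.18 in aged impaired, 8.71, 8.81 and 8.90 in aged unimpaired and 8.46, 8.67 and 8.75 in young samples. No aged impaired sample overlapped the young range, a separation that 1.12% of all tested probe sets shared in that direction. Abcc1 rose by 0.33 ± 0.07 (adjusted p = 0.0247), while its second probe set gave 0.20 ± 0.14. All 3 calls were lost without the filter on dim probe sets and in a fit of only the 2 groups compared, with adjusted p between 0.0673 and 0.0786. The Abcc1 call was also lost without aged impaired replicate 3 or 6 or young replicate 3 or 5 (adjusted p = 0.0503 to 0.0592). The Acer2 call was lost without aged impaired replicate 1, 2 or 6 or young replicate 3, 4, 5 or 6 (0.0630 to 0.0785) and with array weights (0.0614), and the Acer3 call without aged impaired replicate 1, 2, 4 or 6 or young replicate 1, 4, 5 or 6 (0.0508 to 0.0785).

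By role, with each gene on its brightest tested probe set, 2 of 8 ceramidases and sphingomyelinases rose in aged impaired against young samples, as did 1 of 5 genes of transport and carriage, counts too small to set against the 1.03% of all tested probe sets that rose. None of 10 genes of ceramide and sphingosine synthesis, 4 other ceramide-using enzymes, 5 other genes of sphingosine 1-phosphate breakdown or 8 genes of receptors and their G proteins passed the test in that comparison. The medians of the 6 lists lay between −0.13 and 0.04 there.

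Between the aged groups the lowest unadjusted p in the list belonged to 4 probe sets, and none passed the test. Degs2, a hydroxylase and desaturase of ceramide synthesis, differed by −0.36 ± 0.10 between aged impaired and aged unimpaired samples (adjusted p = 0.341). Its level was 6.79 to 7.34 in aged impaired and 7.15 to 7.42 in aged unimpaired samples, and 5 of 6 aged impaired samples lay below all aged unimpaired samples. Kdsr 1435899_at, from an early step of sphingoid base synthesis, differed by −0.19 ± 0.06 (adjusted p = 0.434), while its other probe sets gave 0.09 ± 0.08 and −0.01 ± 0.12. Gna13 1430295_at, a G protein subunit, differed by 0.39 ± 0.13 and Plpp2 1451210_at, a lipid phosphate phosphatase, by 0.37 ± 0.14 (adjusted p = 0.430 and 0.505). The other Plpp2 probe set gave −0.10 ± 0.17, and the other Gna13 probe sets ran from −0.02 to 0.26. These 4 probe sets also differed between aged impaired and young samples. There Gna13 gave 0.50, Plpp2 0.42, Degs2 −0.33 and Kdsr −0.21 (adjusted p = 0.0577, 0.135, 0.106 and 0.107). None of these passed the test, and Gna13 was called in 6 of 25 other settings.

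Between aged unimpaired and young samples Acer2 differed by 0.53 ± 0.21, Acer3 by 0.25 ± 0.11 and Abcc1 by 0.16 ± 0.07 (adjusted p = 0.489, 0.556 and 0.556). Plpp3 1429514_at, a second lipid phosphate phosphatase, differed by −0.29 ± 0.13 (adjusted p = 0.572), and its other probe set by 0.05 ± 0.11. Both comparisons with young samples share the young samples, so these values stand side by side and are not separate evidence.

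The named genes whose level followed Sphk1 1451596_a_at most closely over the 18 samples were Cdc20, an activator of the anaphase-promoting complex, at Pearson r = 0.81 and Mrc2, a receptor that takes up collagen, at r = 0.80. Xpo4, Cep44, Abca8b, Rhbdd2, Zfp689, Fmod, Kctd5 and Wdr5 followed at r = 0.76 to 0.73. With deviations from group means, r was 0.82 for Cdc20, 0.63 for Mrc2 and between 0.38 and 0.72 for the other eight. Cdc20 averaged 6.64 in aged impaired, 5.90 in aged unimpaired and 6.61 in young samples. Mrc2 averaged 6.89 in aged impaired, 6.21 in aged unimpaired and 7.16 in young samples. Both had their lowest mean in aged unimpaired samples, which a choice by r over all 18 samples, group differences included, favours. These are descriptions over arrays that share any difference in RNA, and of the 10 genes 4 to 9 stayed among the 10 under 6 other settings and 1 to 9 when a sample was left out.

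The same measure was applied to S1pr3 and S1pr5 after seeing the data. How many of their 10 genes stay when a sample is left out was not examined. S1pr3 1438658_a_at was most like Itih5 at r = 0.93, Vim, an intermediate filament of glia and mesenchymal cells, at 0.92, and Icam1, an adhesion molecule of vessels and immune cells, at 0.91. Hsd17b11, Trim30a, Man2b1, S100a6, Itgb5, Lyz2 and Cxcl10 followed at 0.91 to 0.90, and r of deviations from group means was 0.82 to 0.88 for the 10. The highest S1pr3 levels, 10.21 and 9.96 in aged impaired replicates 2 and 6 and 9.82 in aged unimpaired replicate 6, weigh on these values. The same samples had the highest levels of the microglial list. S1pr5 was most like Csf1r, the growth factor receptor of microglia, at r = 0.82 and Lcp1, an actin-bundling protein of white blood cells, at 0.81, with r of deviations of 0.64 and 0.65. Fermt3, Klk6, Dlgap1, Adamtsl4, Serpina3n, B3galnt2, Laptm5 and Tut4 followed at 0.80 to 0.77. Their r of deviations ran from 0.55 for Laptm5 to 0.73 for Dlgap1. Csf1r is also on the microglial list, whose level was higher in both aged groups.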

How the data were processed

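Hippocampus RNA was measured on 18 arrays, 6 per group, grouped by sample title. The deposited intensity values are linear probe set signals, and the submitters' processing notes name MAS5, in 45101 probe sets with signals from 0 to 27601. Array slides, scan dates and detection calls were not used here, and the number of arrays limits the precision. Arrays were scaled to a 2% trimmed mean of 500, 16 was added and log2 taken, and 64 control probe sets and the lowest 40% of the rest were left out, which left those with a mean above 5.92. limma 3.58.1 in R 4.3.3 was fitted with 3 group means to all samples, tests were 2-sided, and calls were made at a Benjamini-Hochberg adjusted p under 0.05 over 27022 probe sets. The fit was tested on simulated data. A value after ± is the fit's SE, or an SD where so marked.

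Symbols came from the platform annotation, with 34945 probe sets of 1 gene symbol, 932 of several and 9160 of none, and 34754 were matched to RefSeq of GRCm38.p6. Named were all member probe sets, pathway genes called or otherwise up to 4 of lowest unadjusted p per comparison, the 10 genes most like Sphk1, and first markers of lists. The members and lists were chosen with earlier results of these data known. Other member probe sets and marker genes named beside these were chosen after their values were seen. Other settings were offsets of 1 and 64, quantile normalization, no filter or one of 60%, the sample number as a block, an RNA quality covariate (3' to 5' ratio), a choroid plexus covariate, array weights, trended and robust moderation, only the groups compared, and each sample left out. For a comparison, values with a sample left out cover only samples of the groups compared. Chosen after seeing the data were a meningeal fibroblast covariate and a fit of the 13 arrays rich in choroid plexus transcripts.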

Additional observations from a re-analysis of the deposited data

Results flagged for a closer look

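Within groups of 6, single samples stood far from the rest in 9 of 72 groups of values, where chance gives about 1 in 20. Of these, 8 were member probe sets. On Sphk1 1420566_at, aged unimpaired replicate 3 was low at 4.17 with the next sample at 5.31, both under the background ceiling. On Sgpl1 1415893_at, young replicate 5 was low at 4.50 with the next at 6.52, and on Sgpl1 1415892_at aged impaired replicate 2 was high at 8.80 with the next at 8.54. Aged unimpaired replicate 6 was high on S1pr3 1437173_at at 8.24 with the next at 7.58, high on S1pr1 at 10.80 with the next at 10.64, and low on Sgpp1 1450015_x_at at 8.25 with the next at 8.59. The same sample had the highest mean of the microglial list in its group, 10.53 with the next at 10.13. Aged impaired replicate 6 was low on Sgpp1 1450015_x_at at 8.04 with the next at 8.43, and young replicate 4 was low on Sgpp1 1420822_s_at at 9.20 with the next at 9.66.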

How the results depend on the processing

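The differences of Sphk1 1451596_a_at kept their sign in every setting run, and those of the dim 1420566_at did not: between aged impaired and aged unimpaired samples they ran from −0.26 to 0.12 with a sample left out, and between aged impaired and young samples from −0.019 to 0.30. For 1451596_a_at, between aged impaired and aged unimpaired samples and between aged unimpaired and young samples, they moved with the offset, to 1.39 and −1.82 with an offset of 1 and to 0.47 and −0.72 with an offset of 64. No other member was called between the aged groups or between aged unimpaired and young samples in any of 25 settings. The member call in aged impaired against young samples (S1pr3) went to 0 with an offset of 1, no filter, only the groups compared, or only the arrays of high choroid plexus signal, with 0 to 1 when a sample was left out. On the arrays of high choroid plexus signal, of which there are fewer, the S1pr3 difference was 0.78. The 3 pathway calls went to 0 without the filter, with only the groups compared and with only high choroid plexus arrays, to 5 with the choroid plexus covariate, and to 0 to 4 when a sample was left out (1 without aged impaired replicate 1, 2 or 6 or young replicate 3, 4 or 6, and 0 without young replicate 5). On the high choroid plexus arrays their differences were 0.93 for Acer2, 0.54 for Acer3 and 0.36 for Abcc1. Acer2 was also not called with array weights (0.74, adjusted p = 0.0614). The cause was not tested. No pairing by sample number was seen: deviations of same-numbered samples correlated at −0.25 to 0.10 and 0 of 18 samples fitted their own number best. These correlations over all tested probe sets could miss a weak pairing. With the replicate block S1pr5 was called (adjusted p = 0.0298) and S1pr3 was not (adjusted p = 0.105), and calls over all probe sets were 0 between the aged groups, 17 in aged unimpaired and 240 in aged impaired against young samples, while the fit without the block made 3, 37 and 440.

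Small uncalled differences changed sign. In aged impaired against aged unimpaired samples on high choroid plexus arrays, Plpp3 was −0.0013, Sgpl1 1415892_at −0.087 and Sgpl1 1415893_at −0.17, and S1pr3 1437173_at ran from −0.27 to 0.14 with a sample left out. In aged unimpaired against young samples, the RNA quality covariate gave −0.038 for Degs2, 0.0024 for Kdsr, 0.0038 for Sphk2 1417431_a_at and 0.0079 for Sgpp1 1450015_x_at. High choroid plexus arrays gave −0.035 for Degs2 and 0.10 for Sphk2 1417431_a_at, and quantile normalization 0.0087 for Kdsr. The meningeal fibroblast covariate gave 0.12 for S1pr2 1447880_x_at and −0.074 for Sgpp1 1420821_at. With a sample left out the ranges were −0.032 to 0.072 for Degs2, −0.039 to 0.0047 for Kdsr, −0.037 to 0.11 for Plpp2, −0.10 to 0.020 for Sphk2 1417431_a_at, −0.087 to 0.19 for Sgpp1 1420821_at and −0.12 to 0.020 for Sgpp1 1450015_x_at. In aged impaired against young samples Sphk2 1426230_at was −0.080 with the fibroblast covariate and ran from −0.057 to 0.13 with a sample left out. Over all probe sets, calls in aged impaired against aged unimpaired samples were 6 with a filter of 60%, 0 with only the groups compared and 9 with trended moderation, and 2 to 4 with a sample left out. In aged unimpaired against young samples they were 13 without the filter, 14 on high choroid plexus arrays, 22 with only the groups compared, 23 with the RNA quality covariate, 57 with array weights, 58 with trended moderation and 75 with the fibroblast covariate, and 16 to 33 with a sample left out. In aged impaired against young samples they were 130 on high choroid plexus arrays, 193 without the filter, 241 with only the groups compared and 898 with the fibroblast covariate, and 228 to 418 with a sample left out.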
